A study of Mus musculus with 4 samples.

Results

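Arterial endothelial cells are the lining cells of the renal arteries and arterioles. In single-cell libraries of mouse kidney, 109 of 10535 cells met a count rule for them. A cell was first called endothelial if the UMIs (counted transcript molecules) of Pecam1, Cdh5, Kdr and Tie1 summed to at least 3 and to at least 12 per 10000 UMIs of the cell. Members were then chosen by their own counts: the UMIs of Fbln5, Gja4 and Sema3g together, called the arterial sum here, had to reach 2 and to exceed the sums of 4 other endothelial types. Those sums were Igfbp3, Npr3 and Esm1 for peritubular capillaries, Plat, Pi16 and Ehd3 for glomeruli, Cryab, S100a4 and Kitl for medullary vessels, and Ptn, Sema3d and Vcam1 for veins. The rule found 36 members in angiotensin II hypertension, 73 in salt-sensitive hypertension and 0 in the controls.

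The study set 2 hypertension models side by side in C57BL/6J mice of 10 to 14 weeks, with 4 samples of 1 library each. The groups were angiotensin II-induced hypertension (A2 HTN), salt-sensitive hypertension (SS HTN), a saline control for angiotensin II (A2 Ctrl) and a normal-diet control for the salt model (SS Ctrl). In every group the kidneys of all mice were pooled and dissociated, and cells were selected on magnetic beads with antibodies to CD31 and then to podoplanin, so that the cells stand for no single animal and the yield of each vessel type follows the selection. The labels of both control libraries could not be tied to a model, and these libraries were summed. With 1 library per group no difference between groups was tested, and every interval below is a 95% interval for counting error alone.

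Arterial endothelium differs from capillary and venous endothelium by a transcription programme that depends on Notch signalling and on Sox17, and by tight junctions, connexins that couple endothelial and smooth muscle cells, and matrix for the elastic lamina. It sets vessel tone through nitric oxide and endothelin, and faces the highest flow and pressure. In the kidney it lines the vessels from the renal artery to the afferent arterioles, upstream of the glomerular and peritubular capillaries.

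The members made up 36 of 1223 endothelial cells (2.94%, exact binomial interval 2.07 to 4.05%) with angiotensin II and 73 of 1517 (4.81%, 3.79 to 6.01%) with the salt model. The controls held 0 of 145, which allows a share of up to 2.51%. After every cell was thinned to 1000 UMIs, with shallower cells left out, the rule found 11 of 815 endothelial cells (1.35%) with angiotensin II. It found 49 of 1022 (4.79%) with the salt model and 0 of 89 in the controls, where up to 4.06% is allowed. The salt-sensitive share was the higher at both depths, and the control libraries held too few endothelial cells to set their share apart from that of angiotensin II.

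Depth stood behind these counts as follows. The 36 angiotensin II members carried 127781 UMIs (median 3812.5 per cell) and the 73 salt-sensitive members 252580 (median 3311). The median of other endothelial cells was 4821 for angiotensin II, 2352.5 for salt-sensitive and 2684 for control cells, and that of the remaining cells 863, 1005 and 747. The libraries had 2837, 3284 and 4414 cells, the last summed over both controls. No barcode of an arterial cell occurred in another library.

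Most endothelial cells with arterial rule transcripts were not members. An arterial sum of at least 2 was found in 372 angiotensin II, 414 salt-sensitive and 15 control endothelial cells. Another sum was higher in 323, 308 and 14 of them and equal in 13, 33 and 1. The highest other sum in the angiotensin II cells was the peritubular in 207 cells and the medullary in 91, whereas in the salt-sensitive cells it was the medullary in 155 and the peritubular in 86. Just inside the rule, 2 angiotensin II and 3 salt-sensitive members had the minimum sum of 2, and 11 and 13 members led the next sum by 1 UMI. Just outside it stood the 13 and 33 ties, with a median arterial sum of 3 in each library. The members' median arterial sum was 6 in angiotensin II and 8 in salt-sensitive cells, with highest values of 18 and 38. A sum of at least 10 was reached by 6 of 36 angiotensin II members (16.7%) and 29 of 73 salt-sensitive members (39.7%). All 3 arterial rule genes were detected in 9 and 46 members.

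The levels of the rule genes describe how the cells were chosen and are no finding. Levels are given as CPM, the UMIs of a gene scaled to a common total over the summed members of a library. Fbln5, a fibulin of elastic fibres, stood at 848 CPM in angiotensin II and 1394 CPM in salt-sensitive members. Gja4, an arterial connexin, stood at 400.4 and 527 CPM, and Sema3g, a semaphorin of arterial endothelium, at 565 and 899 CPM. Kdr, the main receptor for VEGF, stood at 864 CPM in angiotensin II and 352 CPM in salt-sensitive members.

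Cldn5 and Sox17, the markers of the label that the rule did not use, both stood higher in the members than in other endothelial cells. Cldn5, the claudin of endothelial tight junctions (chr16:18776847-18778262, GRCm38), was at 848 CPM in arterial against 50.3 CPM in other endothelial cells of the angiotensin II library. With the salt model it was at 1438 CPM in arterial against 90.3 CPM in other endothelial cells. Sox17, a transcription factor of arterial fate (chr1:4490931-4497354), was at 809 in arterial against 364 CPM in other endothelial cells with angiotensin II and at 1125 against 478 CPM with the salt model. A Sox17 UMI was present in 77.8% of angiotensin II and 82.2% of salt-sensitive members, against 6.88% and 8.38% of the cells outside the endothelium in the same libraries, which were shallower.

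The label held less well cell by cell. A Cldn5 UMI was found in 16 of 36 angiotensin II members (44.4%, 27.9 to 61.9%) and in 44 of 73 salt-sensitive members (60.3%, 48.1 to 71.5%), against 9.11% and 9.62% of non-endothelial cells. Cldn5 and Plvap seldom occurred in the same member; Plvap encodes the diaphragm protein of fenestrated capillaries (chr8:71497765-71511752). In the angiotensin II library 4 members had both, 12 Cldn5 alone, 15 Plvap alone and 5 neither. In the salt-sensitive library these numbers were 5, 39, 20 and 9.

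Plvap and Emcn were detected more often in members without a Cldn5 UMI in each library. These were deeper than the Cldn5-positive members in angiotensin II (medians of 4111.5 and 2035 UMIs) and shallower in salt-sensitive (2610 and 3717.5). Of the 20 in angiotensin II, 15 had a Plvap and 18 an Emcn UMI, and of the 29 in salt-sensitive, 20 and 26 did; Emcn encodes endomucin, a glycoprotein of capillary and venous endothelium. Gja5 was found in 1 and 3 of these cells, but Sox17 in 17 and 20. Of the members with a Cldn5 UMI, 4 of 16 in angiotensin II had Plvap, 6 Emcn and 4 Gja5, and of 44 in salt-sensitive 5, 17 and 27 did. Their median arterial sums were 7 and 11, against 5 in the Cldn5-free members of each library. Members without Cldn5 carried 66.5% of the arterial UMIs of angiotensin II cells and 32.1% of those of salt-sensitive cells, so the sums compared below differ in this mixture, and values for the Cldn5-positive members are given beside many of the results. That split was chosen after the values were seen. Cldn5-positive members were not free of transcripts of other cells. Acta2, of smooth muscle, was at 563 CPM in angiotensin II against 40.8 CPM in salt-sensitive Cldn5-positive members. Of the tubule genes, Gpx3 was at 1430 against 350 CPM and Kap at 680 against 175 CPM. All 3 tubule markers past the filter were higher there in angiotensin II, with a median log2 ratio of 2.02.

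**Figure D1:**
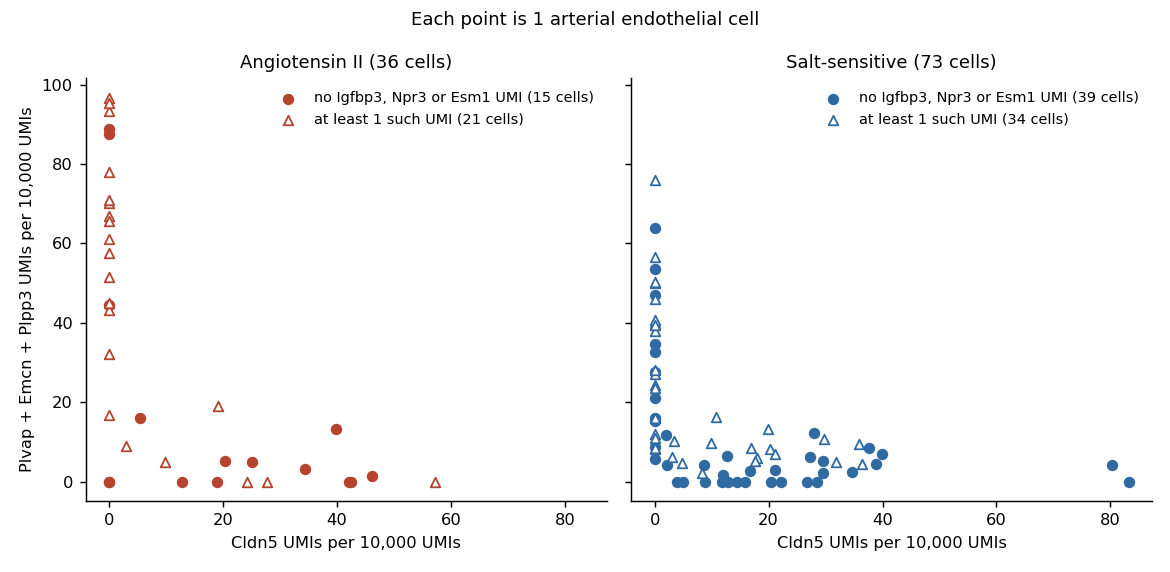
Each point is 1 member; the x axis gives Cldn5 and the y axis the sum of Plvap, Emcn and Plpp3, both in UMIs per 10000 UMIs of the cell, with angiotensin II (36 cells) left and salt-sensitive (73 cells) right, and filled circles mark members without an Igfbp3, Npr3 or Esm1 UMI (15 and 39). In both panels cells high on one axis lie low on the other.

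A set of genes that the rule did not use marked the members in both hypertension libraries. Of 2738 genes past a filter on low counts, 54 (1.97%) were at least 2-fold higher in arterial than in other endothelial cells in each library. Of a list of 32 arterial identity genes, 24 passed the filter, 16 were higher in arterial cells in both libraries and 13 were at least 2-fold higher in both. These cells were selected on correlated genes, so the values are a description. Log2 ratios here and below are of CPM + 5, which draws the ratio of low genes towards 0, while intervals belong to the plain ratio and can reach beyond it.

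Mgp, the matrix Gla protein that inhibits calcification of arteries (chr6:136872435-136875823), had the highest ratio. It stood at 4075 CPM in arterial against 104 CPM in other endothelial cells in angiotensin II (log2 ratio 5.23). In salt-sensitive it stood at 4705 against 177 CPM (4.69). Other genes of the extracellular matrix were among the 25 highest. Eln, elastin, was at 393 against 33.4 CPM in angiotensin II (3.37) and at 955 against 81.3 CPM in salt-sensitive (3.48). Fn1, fibronectin, had log2 ratios of 3.36 in angiotensin II and 4.43 in salt-sensitive, Fbln2, a fibulin, 2.55 and 3.08, and Htra1, a secreted serine protease, 3.89 and 4.03.

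Ligands, secreted or bound to the membrane, were also among them. Bmp4 and Bmp6, ligands of the BMP pathway, had log2 ratios of arterial over other endothelial cells of 4.11 and 2.28 in angiotensin II and of 2.63 and 2.01 in salt-sensitive. Cxcl12, a chemokine, had 3.57 and 2.79, and Vegfc, a growth factor for lymphatic vessels, 2.93 and 3.54. Edn1, the precursor of endothelin, was at 385 CPM in arterial against 60.9 CPM in other endothelial cells in angiotensin II, and at 713 against 148 CPM in salt-sensitive. Jag1, a Notch ligand, was at 243 against 36.1 CPM in angiotensin II and at 745 against 63.7 CPM in salt-sensitive. Efna5, an ephrin, had log2 ratios of 3.87 and 4.45.

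The remainder of the 25 highest genes were of mixed function. Vim, a cytoskeletal filament, had log2 ratios of 2.96 in angiotensin II and 2.33 in salt-sensitive, Clu, clusterin, 3.64 and 3.23. Cdh13, T-cadherin, stood at 181 CPM in arterial against 17.1 CPM in other endothelial cells in angiotensin II. Slco2a1, a prostaglandin transporter, had 2.62 and 2.15, Ptprj, a receptor phosphatase, 2.76 and 2.54, and Stmn2, a microtubule regulator, 4.07 and 2.84. Ptprj stood higher in non-endothelial cells, at 597 and 835 CPM, than in members, at 157 and 638 CPM. Bmp6 did so in angiotensin II alone, at 275 against 204 CPM. Pde3a, a cyclic nucleotide phosphodiesterase, had 3.99 and 3.31, but 33 of its 40 UMIs in angiotensin II were in 1 cell. The others were Ctsh, Nebl, Apba1, Tspan8 and Prune2. Not all arterial genes stood out: Efnb2, an arterial ephrin, was at 298 against 429 CPM in angiotensin II and 412 against 507 CPM in salt-sensitive, lower in arterial cells.

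**Figure D2:**
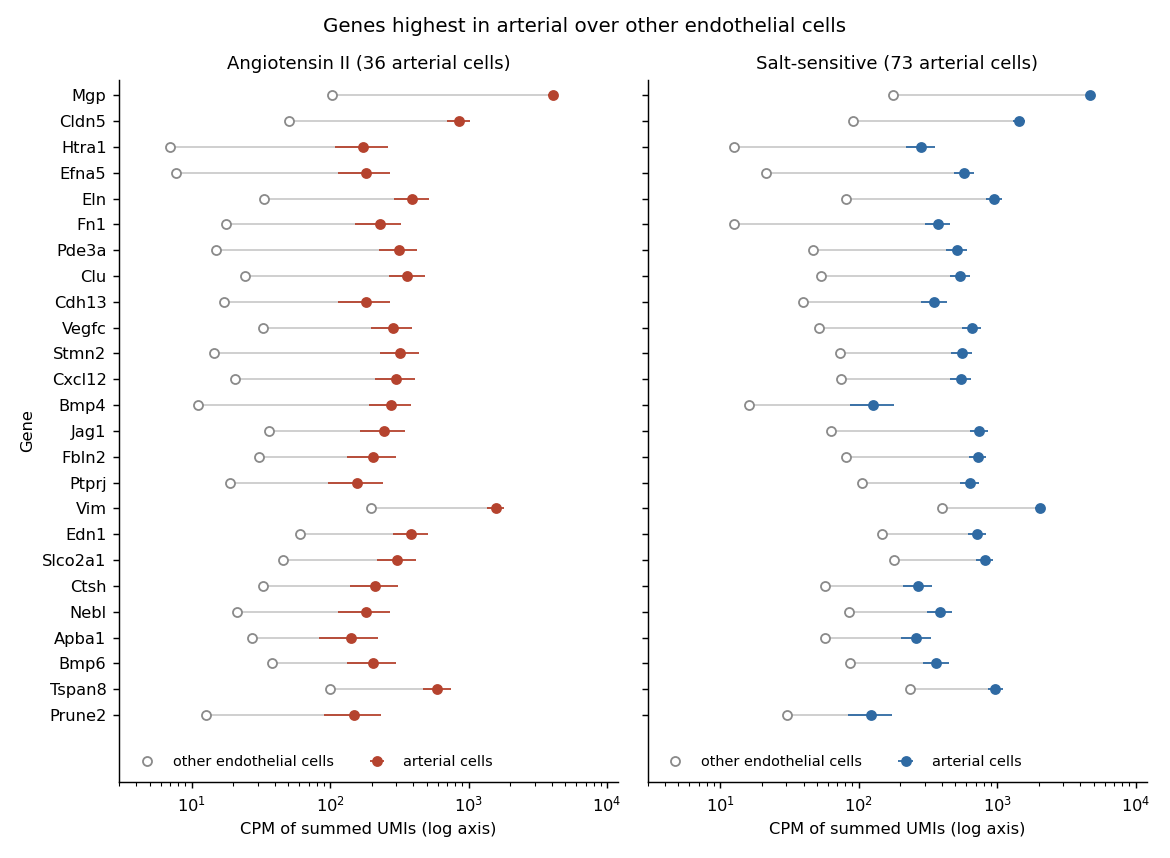
Level in CPM (log axis) of the genes with the highest ratio of arterial over other endothelial cells, angiotensin II left and salt-sensitive right; filled points with bars are arterial cells with their 95% Poisson intervals and open points are other endothelial cells. Every arterial point lies right of its open point in both panels, with Mgp at 4075 and 4705 CPM.

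Whole-profile likeness to the other endothelial types is given as a description over 2734 genes of the same libraries. In the angiotensin II library Pearson's r of log2 levels was 0.888 with medullary-type, 0.839 with glomerular, 0.815 with peritubular and 0.774 with venous-type cells. In the salt-sensitive library it was 0.857, 0.726, 0.708 and 0.763. The venous-type profiles came from 27 angiotensin II and 39 salt-sensitive cells. Medullary-type cells were the nearest in each library. The rule bears on this: cells with an arterial sum of at least 2 but a higher medullary sum can fall in that type. There were 91 such cells in angiotensin II and 155 in salt-sensitive. S100a4, of the medullary sum, was higher in members than in other endothelial cells (369 against 135 and 499 against 387 CPM), while Cryab and Kitl were lower. Pi16, of the glomerular sum, was also higher in members (251 against 83.6 and 440 against 359 CPM). So was Vcam1, of the venous sum (102 against 70.6 and 182 against 48.8 CPM). The other genes of the glomerular and venous sums were lower. The effect of the rule on the likeness was not tested.

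The comparison of angiotensin II with salt-sensitive members addresses differences between the models, which the study set out to describe. Of 2734 genes past the filter, 153 (5.60%) were at least 2-fold higher and 158 (5.78%) at least 2-fold lower in angiotensin II members, with a median log2 ratio of -0.01. With edgeR's TMM scaling the split was 117 higher and 192 lower. Most arterial identity genes were lower in angiotensin II members, and most peritubular capillary and lipid handling genes higher. The lower levels of Cytl1, Vwf, Gja5, Ltbp4 and Nos3 were also found among Cldn5-positive members, and the higher levels of Fabp4 and Plpp3 were not. Other endothelial cells pool types in unlike numbers: 749 peritubular and 97 glomerular of 1187 in angiotensin II, 540 and 239 of 1444 in salt-sensitive. By type, the median of lipid handling genes ran from -0.01 (peritubular) to 1.73 (venous-type). That of peritubular markers ran from 0.38 to 1.55, and that of arterial identity genes from -0.34 to -0.15.

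**Figure D3:**
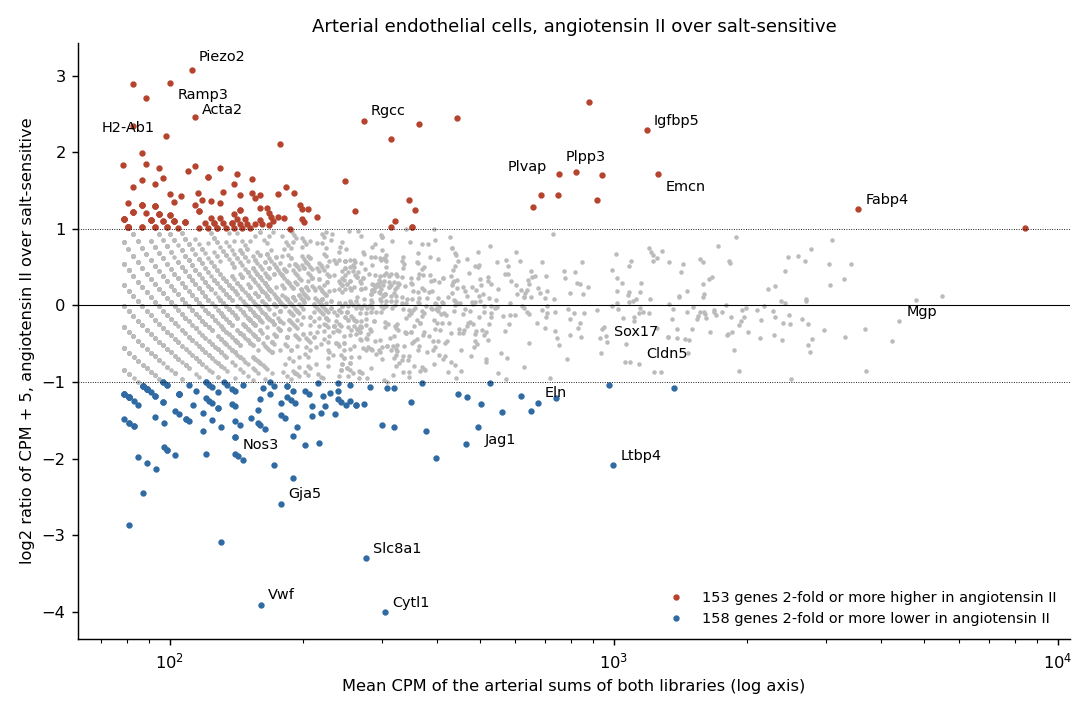
Each point is 1 of 2734 genes: mean CPM of both arterial sums on the x axis (log axis) and log2 ratio of angiotensin II over salt-sensitive members on the y axis, with dotted lines at 2-fold. Cytl1 and Vwf lie lowest at -4.00 and -3.90, and Plvap, Emcn and Plpp3 lie together at 1.71 to 1.74.

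Cytl1, which encodes a small secreted protein (chr5:37735519-37739820), showed the lowest ratio of all. It was at 31.4 CPM (4 UMIs in 3 cells) in angiotensin II and at 578 CPM (146 UMIs in 18 cells) in salt-sensitive members (log2 ratio -4.00, -6.10 to -2.82). Among Cldn5-positive members it was at 70.3 against 846 CPM (-3.50, -5.88 to -2.01). Vwf, von Willebrand factor of platelet adhesion (chr6:125546774-125686679), had 2 UMIs (15.7 CPM) in angiotensin II and 77 (305 CPM) in salt-sensitive members (-3.90, -7.35 to -2.38), and a ratio of -2.57 (-5.78 to -0.77) in Cldn5-positive ones. It was also lower in other endothelial cells of the angiotensin II library, at 7.52 against 80.5 CPM. By type its ratio ran from -0.05 in peritubular to -3.49 in venous-type cells.

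Gja5, an arterial connexin that carries conducted vasodilation (chr3:96904693-97077416), was at 47.1 CPM in angiotensin II and 309 CPM in salt-sensitive members (-2.59, -4.20 to -1.53). It was detected in 13.9% and 41.1% of them, against 1.36% and 1.53% of non-endothelial cells. At 1000 UMIs per cell these shares were 9.09% and 19.4%. Among Cldn5-positive members Gja5 was at 117 against 419.98 CPM (-1.80, -3.51 to -0.55). In other endothelial cells it was at 28.8 and 51.2 CPM.

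Ltbp4, a latent TGF-beta binding protein of elastic fibres (chr7:27305136-27337692), rested on the most UMIs of these genes. It was at 377 CPM (48 UMIs) in angiotensin II and 1619.9 CPM (409 UMIs) in salt-sensitive members (-2.09, -2.57 to -1.67), in 61.1% and 86.3% of cells, against 9.54% and 9.05% of non-endothelial cells. Among Cldn5-positive members it was at 422 against 2012 CPM (-2.24). Other endothelial cells had 351 and 389 CPM, so that the ratio of arterial over other endothelial cells was 0.10 in angiotensin II and 2.04 in salt-sensitive.

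Other elastic matrix genes were lower in angiotensin II members too, at 204 against 725 CPM for Fbln2 (-1.80) and 39.3 against 158 CPM for Fbn1, fibrillin (-1.88). Eln, at 393 against 955 CPM, had a log2 ratio of -1.27 in all members, -1.38 in Cldn5-positive ones and -0.54 in those without a capillary rule UMI. In members without Cldn5 it was higher in angiotensin II, at 331 against 111 CPM (1.53, 0.45 to 2.84). In the whole list of elastic matrix and TGF-beta genes, 15 of 28 past the filter were higher, 1 of them (Bmp4) at least 2-fold, and 13 lower, 5 of them at least 2-fold, against 5.60% and 5.78% of all genes. The median was 0.03, and -0.05 with TMM scaling, and that of 18 genes in Cldn5-positive members -0.28. Bmp4 stood at 275 CPM in angiotensin II against 127 CPM in salt-sensitive members (1.09, 0.38 to 1.85), and at 586 against 169 CPM in Cldn5-positive ones. Mgp was at 4075 against 4705 CPM in all members (-0.21) and at 11344 against 6661 CPM in Cldn5-positive ones (0.77, 0.61 to 0.92). With every cell weighted equally its ratio over all members was 0.72.

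Of the 27 arterial identity genes past the filter, 24 were lower in angiotensin II members, 11 of them at least 2-fold (against 5.78% of all genes tested), and none of the 3 higher ones reached 2-fold. The median log2 ratio was -0.88, against -0.01 over all genes tested. The same genes had a median of -0.60 in other endothelial cells. In Cldn5-positive members 16 of 22 were lower, with a median of -0.58 against 0.04 over all 720 genes past the filter there. Of the 22, 2 were at least 2-fold lower, a share near that of all genes there (68 of 720). Jag1 (chr2:137081456-137116644) was at 243 CPM in angiotensin II and 745 CPM in salt-sensitive members (-1.59), and at 563 against 974 CPM in Cldn5-positive ones (-0.79, -1.47 to -0.17). Mecom, a zinc finger transcription factor, was at 879 and 1854 CPM (-1.07), and Bmx, an arterial tyrosine kinase, at 109.9 and 234 CPM (-1.05). In Cldn5-positive members their ratios were -0.88 and -0.34. Sox17 differed less, at 809 and 1125 CPM (-0.47), and by -0.23 in Cldn5-positive members, an interval that spans 0 (-0.77 to 0.27). Cldn5 itself was at 848 and 1438 CPM (-0.76), and at 2531 and 2117 CPM in the members chosen for it.

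Of 9 Notch pathway genes past the filter, 6 were lower, 4 of them at least 2-fold: Jag1, Jag2, Notch1 and Notch4 (5.78% of all genes). Jag2, a second Jagged ligand, was at 94.2 CPM in angiotensin II and 269 CPM in salt-sensitive members (-1.47). The receptors Notch1 and Notch4 were at 141 and 78.5 CPM in angiotensin II and at 337 and 170.3 CPM in salt-sensitive members. Dll4, the Delta ligand of arterial fate, differed less, with 94.2 against 131 CPM (-0.45, -1.56 to 0.52). The list's median was -0.45, and -0.07 in other endothelial cells. It was 0.15 after thinning to 1000 UMIs. In Cldn5-positive members Jag1 (-0.79), Jag2 (-0.68) and Notch4 (-0.78) were under 2-fold lower, Notch1 had -1.39 (-3.11 to -0.12), and 3 genes of the list passed the filter.

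Genes of vascular tone went both ways. Of 15 past the filter, 7 were higher, 3 of them at least 2-fold, and 8 lower, 2 of them at least 2-fold, against 5.60% and 5.78% of all genes. Nos3, the endothelial nitric oxide synthase (chr5:24364810-24384474), was at 55.0 CPM in angiotensin II and 226 CPM in salt-sensitive members (-1.94, -3.42 to -0.90). It was detected in 16.7% and 41.1% of cells, against 2.48% and 2.49% of non-endothelial cells, and was at 79.4 CPM in other endothelial cells of each library. Among Cldn5-positive members its ratio was -2.46, from 2 UMIs in angiotensin II. Edn1 was at 385 against 713 CPM (-0.88) in all members and at 773 against 822 CPM in Cldn5-positive ones (-0.09, -0.68 to 0.47), where no difference was detectable at this depth. Ramp3, a co-receptor for adrenomedullin, was higher, at 181 CPM in angiotensin II against 19.8 CPM in salt-sensitive members (2.90), and Tbxa2r, the thromboxane receptor, at 149 against 15.8 CPM (2.89). Neither had a UMI in Cldn5-positive members of the angiotensin II library. With 5 and 4 UMIs in salt-sensitive members, Ramp3 and Tbxa2r passed the filter through angiotensin II members alone. In other endothelial cells Ramp3 was at 425 and 181 CPM (1.21) and Tbxa2r at 264 and 122 CPM (1.09). Both stood lower in members than in other endothelial cells of the same library.

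Of 14 shear response genes past the filter, 5 were higher and 9 lower, with a median of -0.05. Nos3 and Klf6 were at least 2-fold lower, against 5.78% of all genes. Timp3, an inhibitor of matrix proteases, was at 2638 CPM in angiotensin II against 4765 CPM in salt-sensitive members (-0.85, -1.03 to -0.68), a well-counted difference under 2-fold, and at 2906 against 4871 CPM in Cldn5-positive ones. Of 16 Sox, Ets and related transcription factor genes 8 were higher and 8 lower, with a median of 0.00. Gata2 was at 94.2 against 226 CPM (-1.22), and Irx3 at 173 against 47.5 CPM (1.76). Irx3 had no UMI in Cldn5-positive angiotensin II members, and Gata2 a ratio of -1.31 (-3.29 to 0.11) in Cldn5-positive ones.

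Capillary genes were the main group with higher levels in angiotensin II members. Of 7 peritubular capillary markers outside the rule, 6 were at least 2-fold higher (5.60% of all genes) and the median was 1.74. The median of the same genes in other endothelial cells was 0.83. Plvap was at 1154 CPM in angiotensin II and 349 CPM in salt-sensitive members (1.71, 1.34 to 2.13), and Emcn, of the pan-endothelial list, at 1931 and 586 CPM (1.71, 1.42 to 2.02). Plpp3, a lipid phosphate phosphatase, was at 1272 and 376 CPM (1.74), and Igfbp5, an IGF binding protein, at 1971 and 400.02 CPM (2.29). Rgcc, a regulator of cell cycle, was at 463 and 83.2 CPM (2.41). These 5 genes stood lower in arterial than in other endothelial cells of their own library.

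Lipid handling genes, which share Fabp4 and Gpihbp1 with the peritubular markers, went with them. All 7 past the filter were higher in angiotensin II members, 4 at least 2-fold (5.60% of all genes), with a median of 1.15 against 0.46 in other endothelial cells. Without the filter the list's median was 0.29. Fabp4, a fatty acid binding protein of capillary endothelium, was at 5009 CPM in angiotensin II and 2095 CPM in salt-sensitive members (1.26, 1.09 to 1.43). Gpihbp1, the capillary anchor of lipoprotein lipase, was at 290.5 and 63.4 CPM (2.11), and Cd36, a fatty acid transporter, at 133 and 51.5 CPM (1.29). Pan-endothelial genes leaned the same way less far, with 9 of 12 higher in angiotensin II members. Plvap and Emcn were at least 2-fold higher (5.60% of all genes), and the median was 0.36 against 0.40 in other endothelial cells. Other markers of glomerular, venous and medullary endothelium had medians of -0.34 over 5 genes, 0.25 over 6 and 0.04 over 6; that of medullary markers was -0.04 with TMM scaling, and that of glomerular markers 0.65 in Cldn5-positive members.

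Among Cldn5-positive members these genes had few UMIs and went both ways. Fabp4 was at 164 CPM in angiotensin II against 542 CPM in salt-sensitive Cldn5-positive members (-1.70, -3.08 to -0.63), with the direction opposite to that over all members. Plpp3 was at 117 against 274 CPM (-1.19, -2.91 to 0.10), and Gpihbp1 had 0 UMIs in each. Plvap was at 93.8 against 40.8 CPM (1.11, -1.02 to 3.18, from 4 and 7 UMIs), Igfbp5 had a ratio of 0.96 (-0.69 to 2.53) and Rgcc of 0.77 (-4.88 to 5.27). Emcn was at 352 against 222 CPM (0.65, -0.30 to 1.56). Fabp4 was the single gene of the peritubular and of the lipid list past the filter there. In members without an Igfbp3, Npr3 or Esm1 UMI, 15 in angiotensin II and 39 in salt-sensitive, Fabp4 was at 2428 against 407 CPM and Emcn at 1643 against 347 CPM. There Gja5 was at 119 against 437 CPM (-1.83), Ltbp4 at 548 against 1996 CPM (-1.86) and Edn1 at 738 against 731 CPM.

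**Figure D4:**
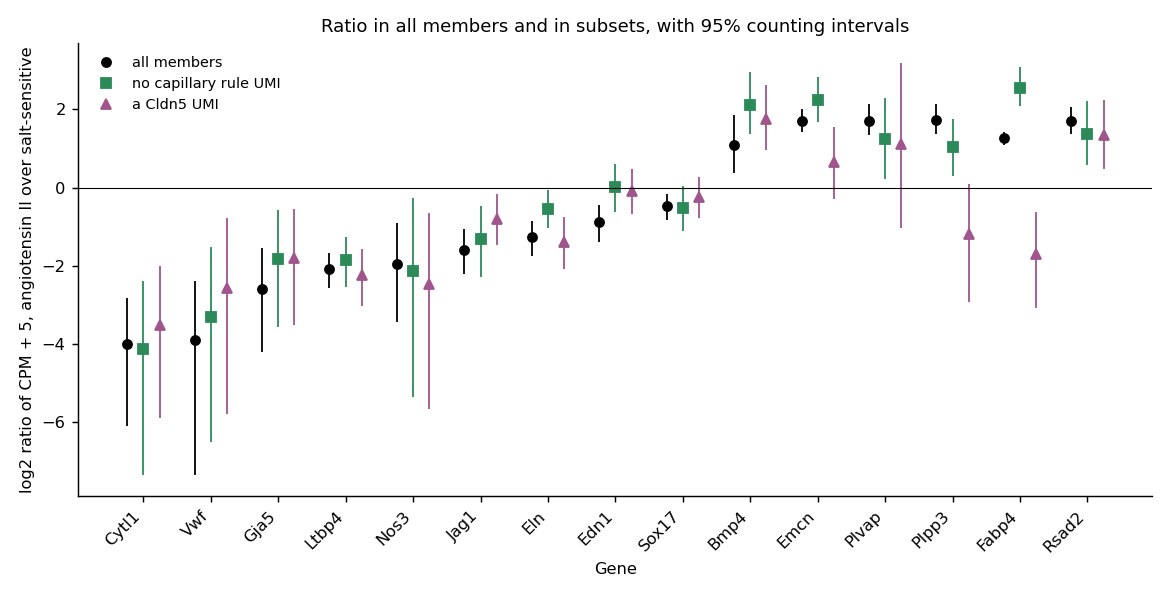
Log2 ratio of angiotensin II over salt-sensitive for 15 genes (y axis) in all members (circles), in those without an Igfbp3, Npr3 or Esm1 UMI (squares) and in those with a Cldn5 UMI (triangles); lines are 95% counting intervals of the plain ratio. Cytl1, Vwf, Gja5, Ltbp4 and Nos3 lie below 0 in every subset, and Fabp4 and Plpp3 lie above 0 in all members and below it in Cldn5-positive ones.

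Of 30 interferon response genes past the filter, 21 were higher in angiotensin II members and 2 at least 2-fold, a share near the 5.60% of all genes. The median was 0.33, against 0.41 in other endothelial cells. In Cldn5-positive members all 7 past the filter were higher, with a median of 0.50. Of these, 1 was at least 2-fold higher, against 32 of all 720 genes past the filter there. Rsad2, viperin, an antiviral enzyme, was at 1445 CPM in angiotensin II against 439.6 CPM in salt-sensitive members (1.70, 1.37 to 2.07), and at 469 against 181 CPM in Cldn5-positive ones (1.35, 0.49 to 2.23). Of 18 MHC class I and antigen processing genes 14 were higher, 2 at least 2-fold (5.60% of all genes), with a median of 0.54 against 0.59 in other endothelial cells and of 0.54 over 10 genes in Cldn5-positive members. H2-Q7, a class I gene with close copies whose reads may be shared, was at 439.6 against 202 CPM (1.10), and H2-T23, of a like family, at 526 against 261 CPM. Of class II, H2-Ab1 was at 165 against 31.7 CPM (2.21), but rested on 1 and 3 UMIs in Cldn5-positive members (0.34, -5.29 to 4.06) and had 0.61 in members without a capillary rule UMI, and Cd74, the invariant chain, at 141 against 71.3 CPM (0.94, -0.04 to 2.01).

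Of 8 leukocyte adhesion genes past the filter 3 were higher, none by 2-fold, and 5 lower, with Vwf and Mcam at least 2-fold lower (5.78% of all genes). The median was -0.23, against 0.36 in other endothelial cells, and was 0.28 in Cldn5-positive members. Heat shock genes had a median of -0.33 over 16, with Hspa1a and Hspa1b, close copies, at 141 and 62.8 CPM in angiotensin II against 356 and 218 CPM in salt-sensitive members. Of 12 immediate early genes 4 were higher and 8 lower, with a median of -0.19, and Gadd45g, a stress gene, was at 62.8 against 218 CPM (-1.72). Oxidative phosphorylation genes (54) and cytosolic ribosome genes (74) had medians of 0.14 and -0.10, and none reached 2-fold either way.

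**Figure D5:**
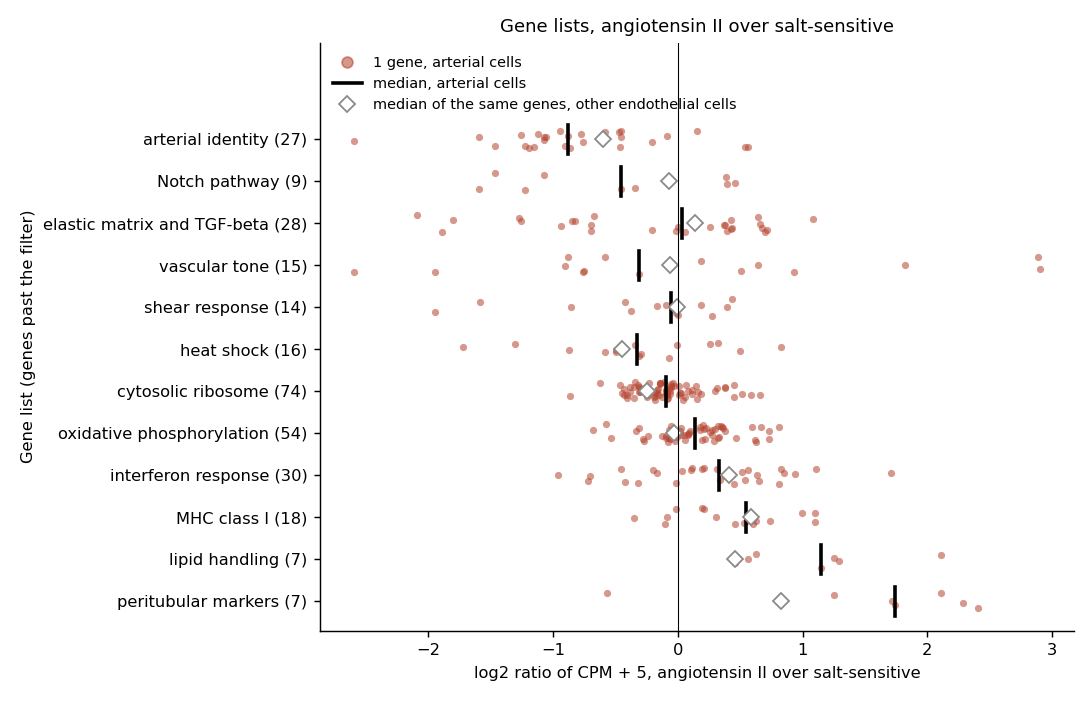
Log2 ratio of angiotensin II over salt-sensitive members (x axis) for the genes of 12 lists past the filter (points), with their median (bar) and the median of the same genes in other endothelial cells (diamond). The arterial identity genes centre on -0.88, the peritubular markers on 1.74.

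Further high ratios, of genes outside the peritubular list, included Piezo2, a mechanosensitive channel, at 204 CPM in angiotensin II against 19.8 CPM in salt-sensitive members (3.08). Fam167b was at 157 against 19.8 CPM, Tcim at 754 against 135 CPM, and Slit3, a guidance ligand, at 141 against 23.8 CPM. With 5, 5 and 6 UMIs in salt-sensitive members, Piezo2, Fam167b and Slit3 passed the filter through angiotensin II members alone. Other endothelial cells held Piezo2 at 203 and 174 CPM, Fam167b at 428 and 257, Tcim at 1201 and 635, and Slit3 at 186 and 71.1. For each gene salt-sensitive members stood below other endothelial cells of their library, as with the capillary genes. Piezo2, Fam167b and Tcim had no UMI in Cldn5-positive members of the angiotensin II library. Single cells weighed on others: 60 of 194 Gm19951 UMIs and 36 of 78 Gm48099 UMIs of the angiotensin II members came from 1 cell. Acta2, smooth muscle actin, had 25 UMIs in 5 angiotensin II members, 14 of them in 1 cell, against 8 UMIs in 7 salt-sensitive members. In members with at most 1 mural or fibroblast UMI its ratio was -0.53.

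The lowest ratios, besides those above, were Slc8a1, the sodium calcium exchanger, at 47.1 CPM in angiotensin II against 507 CPM in salt-sensitive members, Pcdh9, a protocadherin, at 23.6 against 238 CPM, and Igfbp4 at 62.8 against 317 CPM. Sulf1, a heparan sulphate sulphatase, was at 62.8 against 281 CPM. Arhgap44, Golga4, Upf2 and Tnfaip8 lay between 15.7 and 31.4 CPM (2 to 4 UMIs) in angiotensin II against 147 to 154 CPM. They passed the filter, which is on the mean of both libraries, through salt-sensitive members alone, so their large ratios were fixed by it. A Slc8a1 UMI was found in 16.7% and 58.9% of members, below the 43.1% and 77.1% of non-endothelial cells in the same libraries. In the salt-sensitive library its level was 507 CPM in arterial against 229 CPM in other endothelial cells. In angiotensin II other endothelial cells stood at 47.1 CPM like the members, so that their ratio between the models was -2.16. Non-endothelial cells had 1313 CPM in angiotensin II and 2522 CPM in salt-sensitive, so Slc8a1 was lower in angiotensin II in each cell group.

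Transcripts of other cells were measured beside these results. The 28 tubule markers summed to 1908 CPM in angiotensin II and 1450 CPM in salt-sensitive members, against 1079 and 2015 CPM in other endothelial cells and 23239 and 25238 CPM in non-endothelial cells. The highest member held 354 tubule UMIs per 10000 in angiotensin II and 68.0 in salt-sensitive, and the median member 8.62 and 12.7. The 12 mural markers in the tables summed to 298 CPM in angiotensin II and 71.3 CPM in salt-sensitive members, with a UMI in 9 and 14 cells, and Des, Notch3 and Abcc9 at 0 in each library. The 6 macrophage and leukocyte markers summed to 31.4 and 15.8 CPM, with C1qa, C1qb and Laptm5 at 0, and the 6 fibroblast markers to 39.3 and 31.7 CPM, with Pdgfra at 0. The 8 podocyte markers summed to 1382 and 2139 CPM, most of it Podxl, a sialomucin that endothelium also expresses, with Nphs1 at 0. Prox1, the defining lymphatic factor, had 0 UMIs in the members of each library. In members with at most 20 tubule UMIs per 10000, Gja5 had a log2 ratio of -2.97, Ltbp4 of -2.06 and Plvap of 2.16. In members with at most 1 mural or fibroblast UMI these ratios were -3.55, -2.12 and 1.80.

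In the control libraries 97 of 145 endothelial cells had no arterial rule UMI, 33 had 1 and 15 had at least 2, up to 8, so that no arterial sum could be set against hypertension. All endothelial cells of the controls, other types included, had Cldn5 at 114 CPM, Mgp at 87.4 CPM and Ltbp4 at 286 CPM. Cldn5 and Mgp were higher in the arterial cells of each hypertension library, which were selected on correlated genes. The Ltbp4 level of angiotensin II members, 377 CPM (278 to 499.6), had an interval that overlapped that of the controls (235 to 345.5). As these sets of cells are unlike, no likeness to the controls follows. Other endothelial cells had Ltbp4 at 351 CPM in angiotensin II and 389 CPM in salt-sensitive. One control library had 19 endothelial cells and the other 126.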

How the data were processed

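The genome build mm10, Seurat 4.1 and Cell Ranger 7.0.0 are named by the submitters' processing notes, with no step given. The authors deposited raw UMI counts as whole numbers for each gene in each cell, in 1 table for each hypertension library and 1 for both controls. A joined hypertension table served as an alternative. No table lists mitochondrial genes.

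Counts were summed over the members of a library and divided by the totals of the 11897 genes in both hypertension tables (99.7% of angiotensin II and 99.9% of salt-sensitive UMIs). The control table lists 11049 of these genes. A gene passed the filter if its mean CPM was worth at least 10 UMIs in the smaller sum (78.5 CPM). A gene with few UMIs in 1 library thus passed only if high in the other, so its large ratio was fixed by the filter. A log2 ratio is that of CPM + 5, and its interval comes from an exact binomial (Clopper-Pearson) interval conditional on both sums, without the 5 CPM. Levels have exact Poisson intervals, and shares have exact binomial ones. The 19 genes of the membership rule were left out of tests and lists. A gene was counted as higher or lower at a log2 ratio of 1 or -1. No doublet caller was run and no cell was removed, so doublets may be among the members. Each group being 1 library, no p-value is given, and intervals cover counting error alone, since pooled kidneys hide the spread between animals.

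Planned comparisons of each hypertension library with the controls could not be made, because no control cell met the rule. Gene positions are of GRCm38, the assembly of mm10. Named genes were the 12 highest and 12 lowest ratios, the 25 genes highest in arterial over other endothelial cells in both libraries, arterial identity genes and 2 to 4 examples of each list with the largest ratios; positions and values of other markers follow the fixed marker lists. The cells, lists and tests were chosen with earlier results of these data known. Alternatives changed the scaling (TMM from edgeR 4.0.16, median of ratios), filter, pseudocount, cell weights, depth and membership rule. The ratio code was tested on simulated data. Python 3.11.15, numpy 2.4.6, pandas 2.3.3, scipy 1.17.1, matplotlib 3.10.9 and R 4.3.3 were used.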

Additional observations from a re-analysis of the deposited data

Results flagged for a closer look

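For 3 named genes that differed at least 2-fold in the members, the difference between angiotensin II and salt-sensitive cells had opposite directions in arterial and in other endothelial cells, with both counting intervals away from 0. The difference between the cell groups was not tested. Other endothelial cells pool types that differed: by type the ratio ran from -2.02 to 0.50 for Mcam. It ran from -1.19 to 0.56 for Slc34a1 and from -1.28 to 0.35 for Sost. Mcam, a cell adhesion molecule, was at 86.4 CPM in angiotensin II and 229.7 CPM in salt-sensitive members (log2 ratio -1.36), and at 109.9 and 87.4 CPM in other endothelial cells (0.31). Slc34a1, the phosphate transporter of the proximal tubule, was at 180.6 and 79.2 CPM in members (1.14) and at 94.6 and 169.7 CPM in other endothelial cells (-0.81). Of its 23 UMIs in angiotensin II members 15 were in 1 cell, and without each library's top cell its ratio was -0.17. Sost, which encodes sclerostin, was at 212 and 99.0 CPM in members (1.06) and at 13.6 and 26.6 CPM in other endothelial cells (-0.77), and at 0.26 in members with at most 1 mural or fibroblast UMI. Of the named genes under 2-fold in the members, Nrp1, F11r, Kap and Gpx3 also had opposite directions. Their ratios were 0.56, -0.66, 0.82 and 0.60 in members and -0.12, 0.21, -1.22 and -0.88 in other endothelial cells. For the tubule genes Kap and Gpx3, 27 of 36 and 41 of 88 UMIs of angiotensin II members were in 1 cell. Without each library's top cell both ratios in members were negative, as in other endothelial cells. In members with at most 20 tubule UMIs per 10000 they were -1.69 and -0.32.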

How the results depend on the processing

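Over the settings tried, 2053 of the named-gene values stayed within the counting interval of the reported ratio, 252 lay outside it and 11 changed the sign of a 2-fold difference. Settings of the filter cannot alter a gene's own ratio, so their values stayed by construction. Values with 0 UMIs in a library were left out, so sign changes among them are not counted. With a Cldn5 UMI 14 genes had no value, among them Tcim (0 against 4 UMIs) and Irx3 (0 against 6). Of the list medians 378 stayed, 19 moved and 2 changed sign. The counts of genes at least 2-fold higher and lower, 153 and 158, were 1600 and 1619 without the filter, 46 and 71 with a filter of 20 UMIs, and 31 and 39 after thinning to 1000 UMIs, where fewer genes passed. They were 48 and 60 without capillary rule UMIs, 32 and 68 with a Cldn5 UMI, and 50 and 65 where the arterial sum was at least 2 times every other sum, which leave fewer cells. A pseudocount of 20 CPM gave 100 higher, and leaving out each gene's top cell gave 264 lower. The angiotensin II share was 1.35% after thinning. Counts within 1.5 times came from the other settings, among them 117 and 192 with TMM and 151 and 145 with median-of-ratios scaling. Slc34a1 changed sign with an arterial sum of 3 or more (-0.23) or of 4 to 10 (-0.73), at most 1 mural or fibroblast UMI (-0.61), no capillary rule UMI (-0.04) and without its top cell (-0.17). Acta2 did so with at most 1 mural or fibroblast UMI (-0.53) and Psmb10 after thinning (-0.04). With a Cldn5 UMI Fabp4 (-1.70), which alone then makes up the lipid and peritubular medians, Plpp3 (-1.19), Ets2 (-1.16) and Ddx58 (-0.53) did so. The cause was not tested. Over the settings with a value, Cytl1 ranged from -4.58 to -2.40, Gja5 from -3.55 to -1.62, Ltbp4 from -2.31 to -1.70 and Nos3 from -2.46 to -1.20. The alternatives for Cldn5, capillary UMIs, the stricter arterial sum, the range of 4 to 10, the top cell and the genes of all 3 tables were chosen after seeing the data. Leaving out a control library could not be computed for gene ratios, as no control cell was a member. No paired analysis was possible because each group is 1 library and the result comes from no test. Depth limits genes with few UMIs in the 36 angiotensin II cells, where 1 UMI is worth 7.85 CPM.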
